A study of Mus musculus with 15 samples.

Results

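Untreated organoids of the normal mouse pancreatic duct were described here from the 5 libraries harvested at 0 h, out of 15 libraries in the series. They were chosen by their label of 0 h of doxycycline and not by a measured value, and each comes from a different organoid line. Duct organoids are epithelial cultures that grow from duct cells in Matrigel, a basement membrane gel. Lines A217, A220 and A225 carried every allele needed to make the glycan CA19-9 when doxycycline is given and are labelled CA19-9 inducible. Lines A218 and A223 lacked 1 of the required alleles and are labelled genetic negative. The genotypes are described together, and no genotype or time was compared. All lines grew in a medium with EGF, FGF10, gastrin, R-spondin 1, Noggin and A 83-01, an inhibitor of TGF-β type I receptors, which was renewed 24 h before harvest. Strain, age and number of mice are not given in the sources used here. The spread between lines therefore holds both biological and technical differences.

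Pancreatic ducts are lined by a simple epithelium that carries digestive enzymes from the acinar cells to the gut. Duct cells secrete a fluid rich in bicarbonate, using chloride channels, anion exchangers, carbonic anhydrase and aquaporins, and secretin is the classic hormone that raises this secretion. Keratins 8, 18 and 19 form the filaments of these cells, Epcam is an adhesion molecule of simple epithelia, and the transcription factor Sox9 marks duct and progenitor cells.

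The measured quantity was the transcript level of each gene in TPM, transcripts per 1000000, which is the authors' value per transcript summed per gene and corrects for transcript length, so levels of different genes can be set side by side. The libraries held 50323885 to 59411540 estimated counts. In all 5 libraries 11659 of 34547 genes reached 1 TPM, the level called detected here. Among protein-coding genes 11190 of 21957 did so, or 51.0%, and the median level of a protein-coding gene was 1.81 TPM. Levels in any pair of libraries correlated across 12326 genes, which are not independent replicates, with a Pearson r of log2(TPM + 1) between 0.985 and 0.991. The engineered sequences rtTA3 (232 to 397 TPM) and mKate2 (278 to 490 TPM) were present in every line of both genotypes, and EGFP stayed between 0.427 and 1.87 TPM. A puromycin resistance sequence stood at 14.9 TPM in A217 and at 1.85 TPM or less in the other lines.

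A pair of abundant entries is shown first by sequence, because the transcript that gives each its level overlaps the gene of a short RNA. Ccdc107, which encodes a coiled-coil protein, ranked 2 of all genes at 9091 ± 576 TPM (SD, n = 5). Its value came almost wholly (99.2%) from the non-coding transcript ENSMUST00000143073, whose exon 1 of 3 lies at chr4:43492900-43493023 (GRCm38, plus strand). All 124 bases of that exon also belong, on the opposite strand, to Rmrp, the RNA of the RNase MRP ribozyme (chr4:43492788-43493058). Creb5, which encodes a bZIP transcription factor, stood at 539 ± 117 TPM, of which 99.9% came from the non-coding transcript ENSMUST00000211679. Exon 7 of its 7 exons holds the whole of a 164-base snRNA gene, Gm25818 (chr6:53433974-53434137, plus strand). The following lines give the start of the Ccdc107 transcript and the stretch of the Creb5 transcript with 30 bases on either side, from the GENCODE M21 transcripts, with the bases of the overlap in capitals.
Ccdc107: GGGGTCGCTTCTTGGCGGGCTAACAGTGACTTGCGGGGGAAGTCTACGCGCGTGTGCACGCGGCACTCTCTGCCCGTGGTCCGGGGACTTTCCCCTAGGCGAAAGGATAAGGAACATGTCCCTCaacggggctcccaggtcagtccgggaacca
Creb5: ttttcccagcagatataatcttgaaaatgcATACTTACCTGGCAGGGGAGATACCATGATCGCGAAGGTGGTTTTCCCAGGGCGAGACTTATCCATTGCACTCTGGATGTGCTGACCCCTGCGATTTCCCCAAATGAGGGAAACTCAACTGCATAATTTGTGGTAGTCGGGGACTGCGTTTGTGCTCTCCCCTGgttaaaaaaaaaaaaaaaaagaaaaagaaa
Neither Rmrp nor Gm25818 was analysed here as a gene of its own, so within the overlap reads of the short RNA and of the host transcript cannot be told apart. The overlap gives 94 of the 564 31-base words of the Ccdc107 transcript, counted on either strand, and 134 of the 1176 words of the Creb5 transcript. Where along these transcripts the reads lay was not tested. The Ccdc107 levels were 9473, 8761, 9859, 8947 and 8412 TPM in A217, A218, A220, A223 and A225, and those of Creb5 were 431, 538, 592, 704 and 427 TPM in the same order. Ccdc107 was high in every line, while Creb5 was highest in A223 and lowest in A225 and A217. Both transcripts are non-coding, so the ranks of these genes are not those of a protein's mRNA.

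Duct keratins were among the most abundant transcripts of the organoids, and Krt8, Krt18, Krt19, Epcam and Sox9 were detected in every line. Krt18 stood at 3497 TPM in A217, 4067 in A218, 4175 in A220, 3933 in A223 and 4665 in A225, which made it the gene of rank 14. Krt8, its filament partner, stood at 3184, 3474, 3729, 3351 and 3932 TPM in the same order of lines, and Krt19 at 1804, 1839, 2119, 2185 and 2068 TPM. Each of these keratins was lowest in A217, and the highest line was A225 for Krt18 and Krt8 and A223 for Krt19. Epcam was lower, at 358, 338, 335, 313 and 381 TPM. Sox9 was far lower, at 3.94, 4.64, 4.30, 4.45 and 3.70 TPM, and ranked 10183.

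Krt18 exceeded Krt8 in 5 of 5 lines, but their ranges overlapped. The ranges of Krt8, Krt19, Epcam and Sox9 did not overlap, so this order held in every line. The 5 markers together summed to 8847 TPM in A217 and to 11050 TPM in A225, with a mean of 9954. Krt8 shares 32.3% of its 31-base words with other listed transcripts, the word length kallisto matches by, chiefly with the pseudogene Krt8-ps. Krt8-ps itself was at 4.48 TPM on average. Krt18 shares 11.4% and Krt19 0.517% of these words.

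A list of 24 further duct genes was chosen with earlier results of these data known, so its share is a description only. Of these 24 genes 21 were detected, against 51.0% of all protein-coding genes, with a median level of 186.6 TPM against 1.81. The most abundant were Anxa2 (1978 ± 124 TPM), a membrane-binding annexin, Krt7 (911 ± 157), Tspan8 (894 ± 64.4), a tetraspanin, Cd24a (690 ± 56.8), a surface glycoprotein, and Spp1 (596 ± 114), the secreted matrix protein osteopontin. Cdh1, the epithelial cadherin, stood at 257 ± 18.6 TPM. Krt7 was 663 TPM in A217 and between 911 and 1098 TPM in the other lines. The duct regulator Onecut1 (17.1 ± 1.36 TPM) was detected at a low level, like Sox9.

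The 3 duct genes below 1 TPM included the channel and the hormone receptor best known for duct secretion. Cftr, the apical chloride and bicarbonate channel, was at 0.475 TPM in A217, 0.542 in A218, 0.376 in A220, 0.773 in A223 and 0.890 in A225. Sctr, the secretin receptor, lay between 0 and 0.0436 TPM, and Dcdc2a, a ciliary doublecortin-family gene, between 0.167 and 0.660 TPM. Every line was low for these genes. In bulk RNA a gene carried by few cells and a gene carried weakly by all cells cannot be told apart.

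**Figure D1:**
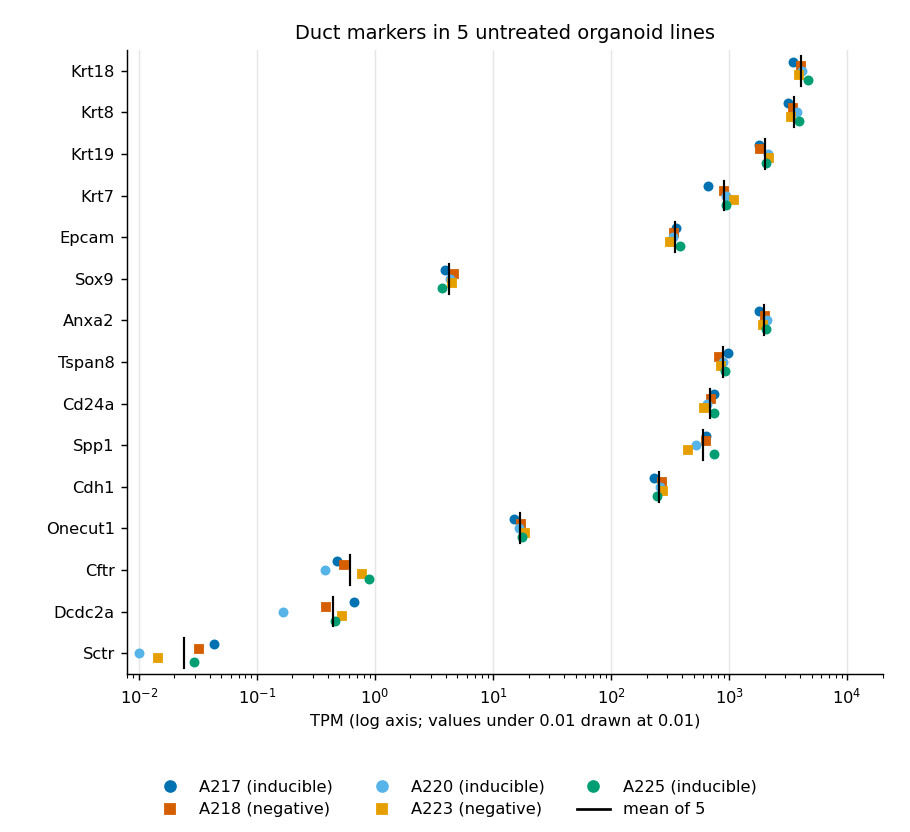
TPM of duct markers on a log axis, with a point for each untreated line (circles for CA19-9 inducible, squares for genetic negative) and a bar at the mean of 5. Krt18, Krt8 and Krt19 lie at 1804 TPM or more, Sox9 near 4 TPM, and Cftr, Dcdc2a and Sctr below 1 TPM.

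The gene list of the organoids was led by the translation machinery. Eef1a1, the elongation factor that brings tRNA to the ribosome, was the most abundant gene at 11982, 10980, 11515, 11436 and 11073 TPM in A217, A218, A220, A223 and A225. Its range lay above that of every other gene. S100a6, a calcium-binding protein of epithelial cells, followed Ccdc107 at 5459, 5852, 6148, 7286 and 7324 TPM, highest in A223 and A225. Ftl1, the light chain of the iron store ferritin, was next at 5446 ± 177 TPM. Of the 20 most abundant named genes, 9 encode cytosolic ribosomal proteins: Rpl41, Rplp1, Rps2, Rpl13a, Rplp0, Rps27, Rpl32, Rpsa and Rpl19, between 3177 and 5438 TPM. The others were mt-Co1 (5163 ± 635 TPM), the cyclophilin Ppia (4779 ± 156), Krt18, Krt8, the actin Actb (3974 ± 202), the chaperone Hspa8 (3686 ± 156) and Chd9.

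Chd9, which encodes a chromatin remodeller, is a further gene whose level needs care. Its 3270 ± 683 TPM came to 99.7% from the 759-base non-coding transcript ENSMUST00000209474, of whose 31-base words 60.9% occur in GENCODE transcripts that are not used here, the lincRNA Gm42031 first. It stood at 4463 TPM in A223 and between 2848 and 3221 TPM in the other lines. The predicted gene Gm20594 (5111 ± 171 TPM, rank 7) shares 42 of its 419 words with the mitochondrial 16S ribosomal RNA mt-Rnr2. Among 19 neighbouring pairs in the order of the 20 named genes, ranges did not overlap in 2, both of which include Ccdc107, so most of these ranks cannot be separated beyond the spread between lines.

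The 20 most abundant genes of all kinds held 10.2% of all TPM, the 100 most abundant 28.8%, and the 1000 most abundant 64.8%. A mean of at least 1000 TPM was reached by 161 genes and of at least 100 TPM by 1660 genes. Protein-coding genes held 94.5% of TPM and genes annotated as pseudogenes 4.75%. Many of the latter are near-copies of abundant genes, and the split of reads between copy and parent is uncertain.

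By class, the 79 cytosolic ribosomal protein genes were all detected, against 51.0% of all protein-coding genes, and held 16.2 ± 0.417% of TPM (SD, n = 5). Histone genes followed with 4.68 ± 0.233% and 74 of 80 detected, led by Hist2h2bb (3125 TPM), Hist1h4k (2487 TPM) and Hist1h4h (2164 TPM). The RNA was depleted of ribosomal RNA and not selected by poly(A) tails, per the labels' protocols, so histone mRNAs, which lack such tails, were kept. Every 31-base word of Hist2h2bb also lies in the antisense transcript Gm20628, which was not analysed here. With other listed transcripts Hist1h4k shares 86.2% of its words, Hist1h4a first, and Hist1h4h 50%, Hist1h4j first. The split of reads among these genes is uncertain. Nuclear genes of the respiratory chain held 2.68 ± 0.0621%, led by the ATP synthase subunit Atp5b (2017 TPM). Histone RNA was lowest in A225, at 4.29%, and highest in A217, at 4.92%.

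The 13 protein genes of the mitochondrial genome held 1.49 ± 0.122% of TPM, led by mt-Co1, mt-Co3 (2936 TPM) and mt-Atp8 (1679 TPM). Reads of some of these genes cannot be told apart from those of nuclear copies, whose values are not in this share. Gm28437 matches mt-Co3 in all of its 31-base words and was listed at 4236 TPM, so mt-Co3 and its copy summed to 7172 TPM. Likewise mt-Co2 was listed at 465 TPM and its full copy Gm28661 at 3286 TPM.

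Structural and protective epithelial classes held smaller shares. Keratins held 1.06 ± 0.0916% of TPM, and 3 of them held 90.4% of that. Of 53 keratin genes 10 were detected, where 51.0% of all protein-coding genes were. After Krt7 there was a wide gap to Krt23 (56.2 TPM) and Krt20 (19.8 TPM), while the basal and squamous keratins Krt5 (0.511 TPM) and Krt14 (0.0839 TPM) were below the detection level. S100 proteins held 0.858%, glutathione S-transferases 0.785% (Gsta4 2270, Gsta3 1209 and Gstp1 1188 TPM) and annexins 0.533%. Gstp1 shares 67.5% of its 31-base words with other listed transcripts, Gstp2 first. Claudins, the strands of tight junctions, were led by Cldn7 (319 TPM), Cldn2 (291 TPM) and Cldn3 (178 TPM). Of 12 mucin genes only Muc1, a membrane mucin, was detected in every line, at 116 ± 9.30 TPM. The 3 most abundant mucins, Muc1 among them, held 99.9% of the mucin TPM.

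**Figure D2:**
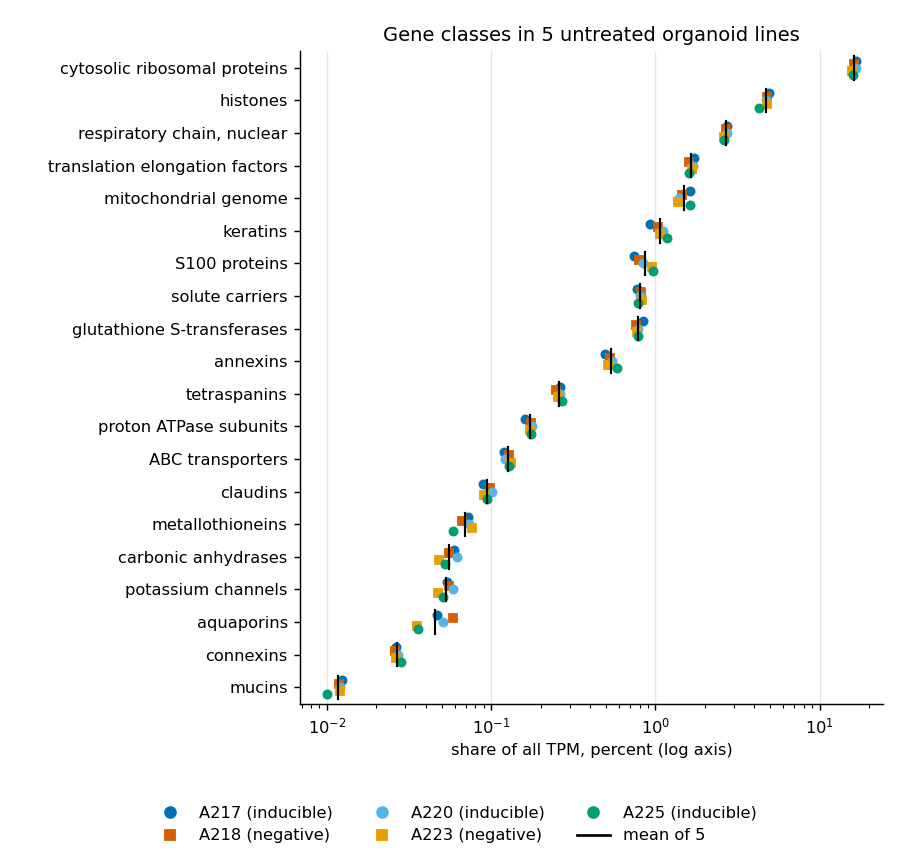
Share of all TPM held by each of 20 gene classes, in percent on a log axis, with a point for each untreated line and a bar at the mean of 5. Ribosomal protein genes hold 16.2% and keratins 1.06%, and the points of several neighbouring classes overlap, as those of aquaporins and potassium channels do.

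Genes of the cell cycle were present in every line. All 27 examined were detected, against 51.0% of all protein-coding genes, with a median of 165 TPM against 1.81. They included Ccnd1 (771 ± 48.4 TPM), the cyclin that drives entry into the cycle, Cdk1 (456 ± 18), the kinase of mitosis, the replication clamp Pcna (436 ± 24.8), the topoisomerase Top2a (295 ± 17.3) and Mki67 (75.3 ± 5.55). Of 18 glycolysis genes 16 were detected, or 88.9%, with a median of 299 TPM, and the glucose transporter Slc2a1 stood at 86.8 ± 3.67 TPM. The cell cycle and glycolysis lists were chosen with earlier results of these data known, so these shares are descriptions and test nothing.

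Markers of other cell types were mostly near 0. Of 180 such genes 27, or 15%, were detected, against 51.0% of all protein-coding genes. In the acinar list 2 of 36 were detected, Ctrc (6.77, 12.5, 8.04, 8.20 and 7.27 TPM in A217, A218, A220, A223 and A225), a protease that processes other proenzymes, and Cela1 (1.96 TPM). All of the Ctrc value came from the 310-base transcript ENSMUST00000136064, 1 of 5 listed for the gene. The Ctrc level is thus that of this short transcript and not of the others listed. The whole acinar list summed to 11.5 to 17.7 TPM, and the acinar regulator Ptf1a and the carboxypeptidase Cpa1 had 0 counts in every library. The endocrine list had 1 of 27 detected, Ghrl (2.39 TPM), and a summed level of 2.87 to 6.96 TPM. Ins1, Ins2, Gcg and Sst, the islet hormones, had 0 counts in all 5 libraries, which allows up to 0.0596 counts per 1000000 in the shallowest library at a floor of 3 counts.

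Stromal and immune genes were also mostly below the detection level. The lists had 2 of 20 fibroblast and stellate, 3 of 12 endothelial, 2 of 21 leukocyte and 1 of 6 mesothelial markers detected. The share of all protein-coding genes detected was 51.0%. The fibroblast and stellate list summed to 5.90 to 14.1 TPM, with Tagln (4.15 TPM) and Thy1 (2.56 TPM) detected and Pdgfra at 0.0193 and Col1a1 at 0.101 TPM. In the endothelial list Egfl7 stood at 33.5 ± 2.52 TPM, Pecam1 at 3.18 and Esam at 1.79 TPM, but Cdh5, the cadherin that defines endothelium, had a count in 1 line only and a mean of 0.00128 TPM. In the leukocyte list Cd14 stood at 90.2 ± 8.10 TPM, but Ptprc (CD45) was at 0.127 TPM. In the mesothelial list Msln stood at 455, 588, 745, 816 and 660 TPM, lowest in A217 and highest in A223, while Wt1, a mesothelial transcription factor, was at 0.295 TPM. Egfl7, Cd14 and Msln were thus present in each line while these defining genes of the cell types were near 0.

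Some markers of gut and liver were abundant, while the shares of these lists detected lay below the 51.0% of all protein-coding genes. Of 18 intestinal markers 6 were detected, or 33.3%, with a summed level of 438 to 591 TPM: Cdh17 (187 ± 46.1 TPM), an intestinal cadherin, Lgals4 (131 ± 45.4), the microvillus protein Vil1 (109 ± 5.36) and the homeobox factor Cdx2 (14.9 ± 1.89) among them. The goblet cell mucin Muc2 averaged 0.00251 TPM. Of 15 gastric markers 5 were detected, also 33.3%, led by Tff1 (36.3 ± 17.9 TPM), Ctse (30.8 ± 11.9) and Tff2 (20.3 ± 6.99), while Muc5ac averaged 0.00134 TPM and Gkn1 had 0 counts. Tff1 differed between lines, at 40.7, 23.7, 57.1, 47.2 and 12.7 TPM, lowest in A225. Of 16 hepatocyte markers 4, or 25%, were detected, among them Hnf4a and Ttr (158 and 65.3 TPM), and Alb averaged 0.937 TPM.

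**Figure D3:**
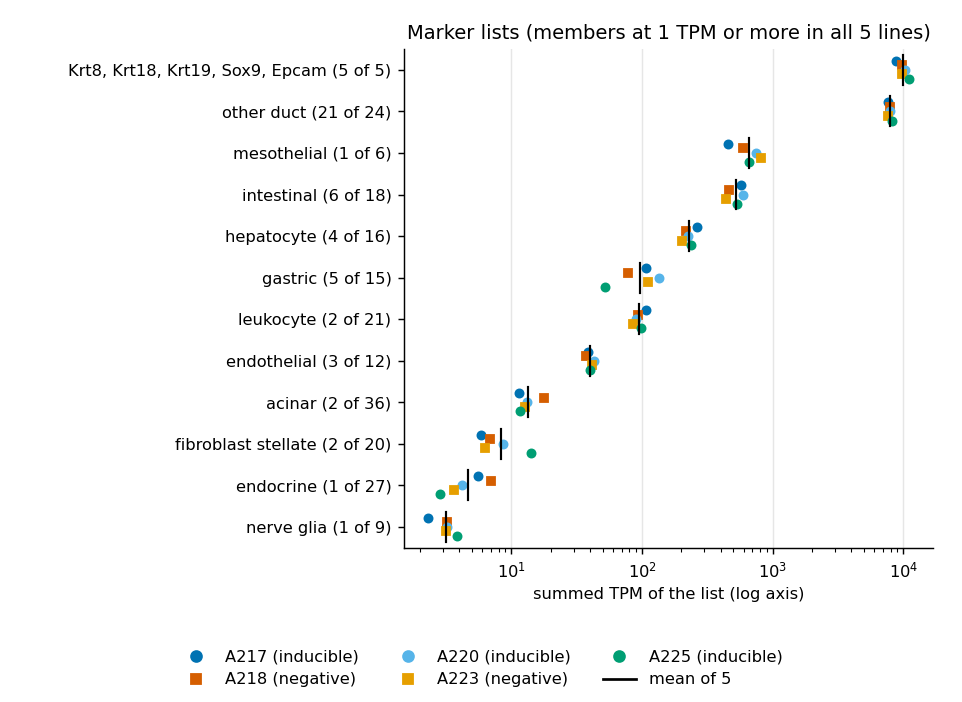
Summed TPM of each marker list on a log axis, with a point for each untreated line and a bar at the mean of 5, and in brackets the number of members detected of the number listed. The duct lists lie between 7614 and 11050 TPM, and the acinar, fibroblast, endocrine and nerve lists lie under 20 TPM in every line.

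Of 549 transcription factors 307 were detected and 189 averaged at least 10 TPM, or 55.9% detected against 51.0% of all protein-coding genes. The most abundant was Ybx1 (1553 ± 62.5 TPM), a cold-shock protein that also binds mRNA. Id2 stood at 708, 759, 762, 734 and 895 TPM, highest in A225, and Id1 at 385 ± 37.4 TPM. Both are inhibitors of bHLH factors and known BMP targets. Creb5, with the limit given above, came after Id2, and Ybx3 (422 TPM), a relative of Ybx1, after Creb5. The 15 most abundant held stress and metabolic regulators: Nfe2l2 (380 ± 13.8 TPM), which controls antioxidant genes, Atf4 (233 ± 9.29), Xbp1 (151 ± 13.6), a factor of the secretory pathway, and Srebf1 (121 ± 6.95), a factor of lipid synthesis.

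Also among the 15 were Tsc22d1 (219 TPM), Tfdp1 (200 TPM), a partner of E2F factors, Junb (104 TPM), a subunit of AP-1, and the epithelial and endodermal factors Ehf, Hnf4a and Hes1. Ehf, an ETS factor of epithelia, stood at 311, 286, 270, 253 and 294 TPM, and Hnf4a, a nuclear receptor of liver and gut, at 154, 154, 160, 153 and 170 TPM. Of the Hnf4a value 43.8%, or 69.2 TPM, came from the 431-base transcript ENSMUST00000143911, 1 of 5 listed. The place of Hnf4a among the 15 thus rests in part on this short transcript. Hes1, the Notch target, stood at 130 ± 2.95 TPM. Elf3 (55.1 TPM), Foxa2 (53.3 ± 2.21), Klf5 (34.9) and Grhl2 (32.6) were lower and outside the 15. Pdx1, the pancreatic homeobox factor, stood at 19.7, 20.8, 20.3, 20.4 and 15.8 TPM, lowest in A225, and Gata6 at 19.2 TPM. The endocrine and progenitor factor Nkx6-1 averaged 0.201 TPM and Foxa1 0.470 TPM.

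By family, the ETS, Grainyhead and TEAD group had 26 of 35 members detected (74.3%) with a median of 13.1 TPM. The bZIP group had 39 of 53 detected (73.6%) with a median of 9.08 TPM. Homeodomain and POU factors had 35 of 103 detected (34.0%) and a median of 0.118 TPM, with Cux1 (63.0 TPM) the most abundant. For all protein-coding genes the share was 51.0% and the median 1.81 TPM, and the families were not tested against each other. Of the forkhead factors, Foxj1, the regulator of motile cilia, stood at 52.5, 49.0, 46.6, 37.8 and 77.4 TPM, almost level with Foxa2 and highest in A225. In the order of the 15 most abundant factors, 6 of 14 neighbouring pairs had ranges that did not overlap, Id2 and Creb5 being 1 of these pairs.

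Receptors and other surface proteins had 161 of 330 members detected, or 48.8%, near the 51.0% of all protein-coding genes. The tetraspanins Cd81 (543 ± 16.5 TPM) and Cd9 (329 ± 13.7) and the syndecans Sdc4 (311 ± 18.8) and Sdc1 (277 ± 22.2), which are heparan sulfate proteoglycans, were near the top. Tnfrsf12a, the receptor of the cytokine TWEAK, stood at 467, 541, 554, 505 and 579 TPM. Plaur, the urokinase receptor, reached 277 ± 25.6 TPM, the integrin chain Itgb1 230 ± 18, the lipoprotein receptor Lsr 209 ± 6.04, Plxnb2 198 ± 8.02 and the ephrin receptor Epha2 180 ± 12.4. The lowest of the 15 was the laminin-binding integrin chain Itga3 (127 ± 19.7 TPM). The integrin chains Itga6 (107 TPM) and Itgb4 (27.7 TPM) were present too.

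By receptor family, 25 of 98 G protein-coupled receptors (25.5%) and 37 of 46 uptake and other surface receptors (80.4%) were detected, against 51.0% of all protein-coding genes, and the families were not tested against each other. F2rl1 (88.8 ± 9.49 TPM), a receptor cut by trypsin, led the G protein-coupled group. Among receptors known for duct secretion, the purinergic receptor P2ry2 stood at 46.6 ± 3.67 TPM, while Vipr1 (0.497), Chrm3 (0.370) and Adora2b (0.101 TPM) were under 1 TPM, as was Sctr. Of the Wnt, R-spondin, Notch and Hedgehog receptors 19 of 24 were detected, led by Lrp5 (54.0 TPM), and Notch1 (14.8 TPM) and Notch2 (13.2 TPM) stood beside the ligand Jag1 (45.8 TPM).

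The receptor families of the factors in the medium were unevenly present, and members are listed by family and not by binding of the factor. In the EGF receptor family, Erbb3 (38.4 ± 2.00 TPM), Erbb2 (33.8 ± 2.79) and Egfr (27.0, 34.7, 31.5, 27.0 and 39.9 TPM, highest in A225) had overlapping ranges, and Erbb4 averaged 0.00241 TPM. For FGF10, Fgfr2, the receptor gene whose epithelial isoform binds it, stood at 126, 91.3, 104, 55.3 and 98.7 TPM, with A223 lowest. The other family members Fgfr3 (29.9 TPM), Fgfr4 (6.97 TPM) and Fgfr1 (0.428 TPM) followed in an order that held in all 5 lines with ranges apart. For R-spondin, Lgr4 (45.1 ± 3.71 TPM) lay above the ligases Rnf43 (28.4 ± 1.97) and Znrf3 (8.51 ± 0.711), then Lgr5 (2.25 ± 0.483) and Lgr6 (0.0717), again with ranges apart.

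Receptors for gastrin were at or near 0. Cckbr, the gastrin receptor, had 0 counts in every library, which allows at most 3 counts in each, or 0.0505 to 0.0596 counts per 1000000, and this floor covers counting error only. Cckar, the cholecystokinin receptor, averaged 0.0181 TPM. Of the BMP receptors, whose ligands Noggin binds, Bmpr1a (53.5 ± 4.74 TPM) was the most abundant, ahead of Acvr2a (14.3), Bmpr2 (5.14), Acvr1 (2.95) and Acvr2b (1.00 TPM), and Bmpr1b averaged 0.0145 TPM. Of the type I receptors that A 83-01 blocks, Tgfbr1 (26.5 ± 2.04 TPM) and Acvr1b (17.6 ± 2.00) were detected and Acvr1c (0.0239 TPM) was not. Tgfbr2, the type II receptor of TGF-β, stood at 78.1, 115, 112, 129 and 106 TPM, lowest in A217.

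Of 407 genes for secreted proteins 164 were detected, or 40.3% against 51.0% of all protein-coding genes, and 100 averaged at least 10 TPM. Clu, the extracellular chaperone clusterin, led with 2495, 2546, 2562, 2187 and 2502 TPM, lowest in A223, and its range lay above that of every other member. Wfdc2, a whey-acidic-protein domain protein of mucosal surfaces, stood at 1106 ± 73.8 TPM and the cytokine Mif at 990 ± 49.5 TPM. Anxa1 (705 ± 46.9), Spp1, the lysosomal protease Ctsd (569 ± 31.1), the galectin Lgals3 (566 ± 77.8), the protease inhibitor Spint2 (541 ± 21.3) and the metalloprotease inhibitor Timp3 (444 ± 28.6 TPM) followed. P4hb (663 ± 11.3 TPM), which is on the list, is mainly kept in the endoplasmic reticulum.

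Spp1 varied more than its neighbours, at 639, 634, 522, 446 and 739 TPM, lowest in A223 and highest in A225. Among carrier proteins Ambp (316 ± 41.2 TPM) and Ttr (65.3 ± 21.0) led. Basement membrane and matrix genes had 35 of 83 members detected, or 42.2% against 51.0% of all protein-coding genes. After P4hb they were led by Tinagl1 (295 ± 29.5 TPM) and Ccn2 (274 ± 12.7), with the collagen Col4a1 (68.5 TPM) and the laminin chain Lamb3 (37.5 TPM). The metalloprotease Mmp7 averaged 178 TPM and ranged from 115 in A225 to 217.3 in A218. Of 55 cytokine and chemokine genes 24 were detected, or 43.6%, also below that 51.0%. Among them were Il1rn (206 ± 22.7 TPM), the antagonist of interleukin-1, and the chemokines Cxcl5 (95.2), Cxcl16 (84.9) and Ccl20 (67.7 TPM).

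Growth factor genes of the organoids themselves included several EGF receptor ligands. Areg stood at 70.9, 85.1, 75.2, 87.5 and 111 TPM, Hbegf at 61.0 ± 5.68 and Tgfa at 51.0 ± 4.84 TPM, while Egf averaged 0.843 TPM. Wnt7b was the most abundant Wnt gene examined, at 145 ± 14.8 TPM, with Wnt4 at 22.8 TPM. Rspo1, whose protein the medium supplied, averaged 0.120 TPM. Vegfa, the vascular growth factor, stood at 66.5 TPM, and Hdgf (267 ± 11.4 TPM), which is mainly nuclear, headed this group.

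**Figure D4:**
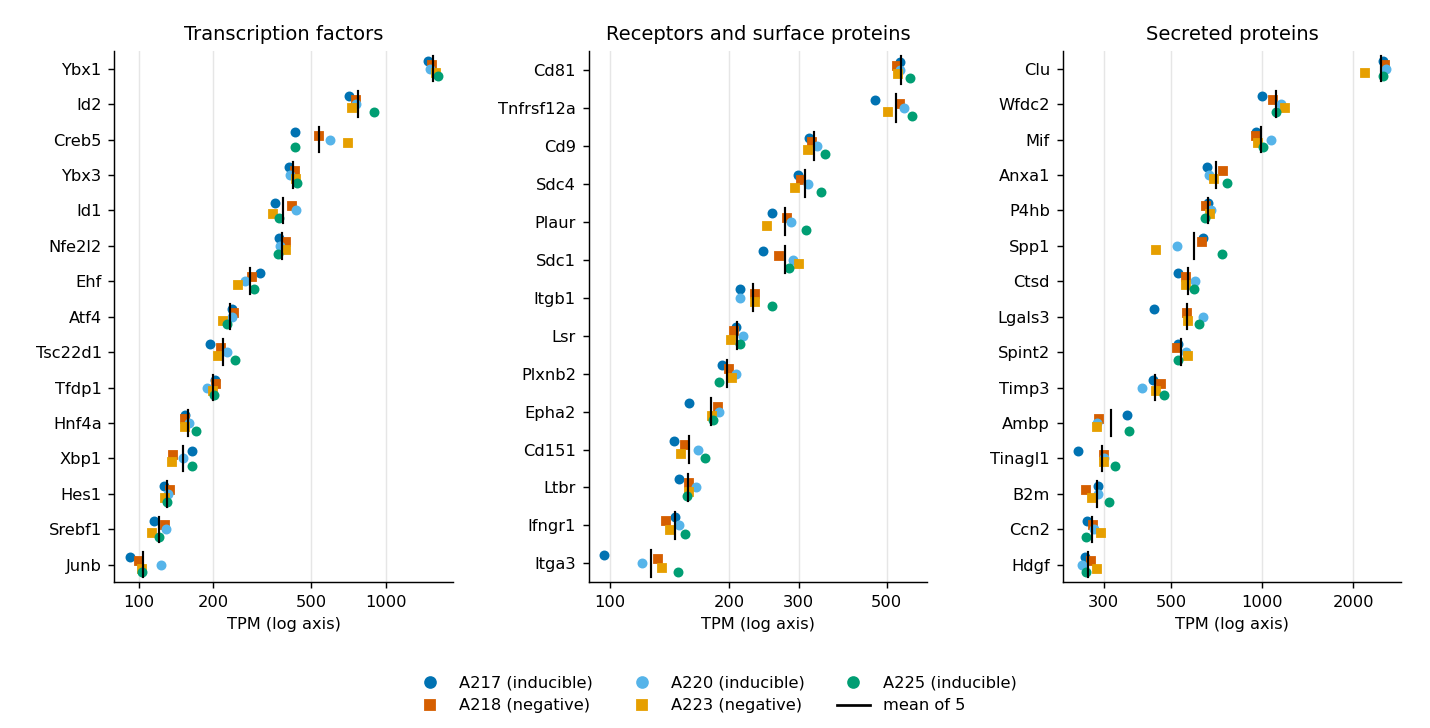
TPM of the 15 most abundant transcription factors and secreted proteins and of leading receptors and surface proteins, on log axes, with a point for each untreated line and a bar at the mean of 5. Ybx1, Cd81 and Clu lead their panels at 1553, 543 and 2459 TPM, and most neighbouring genes have overlapping points.

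Abundant transport genes of the duct included the sodium pump subunit Atp1b1, the calcium-activated chloride channel Ano1 and the water channels Aqp5 and Aqp1. The exchangers Slc26a6 and Slc26a3 were low. Of 50 ion transport genes 31 were detected, or 62%, against 51.0% of all protein-coding genes. On the basolateral side, where the driving gradients are made, the sodium pump subunit Atp1b1 stood at 302 ± 16.3 TPM, the anion exchanger Slc4a2 at 56.6 ± 6.36 and the chloride loader Slc12a2 at 37.7 ± 3.17 TPM. Slc4a4, the sodium bicarbonate cotransporter of ducts, was lower at 7.88 ± 0.819 TPM, and Slc4a7, of the same family, stood at 22.6 ± 1.98 TPM.

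On the apical side, Ano1, the calcium-activated chloride channel, stood at 342, 410, 394, 389 and 411 TPM, in every line above 300 TPM where Cftr was below 1 TPM. The exchangers Slc26a6 (3.60 ± 0.473 TPM) and Slc26a3 (0.693 ± 0.231), which trade chloride for bicarbonate, were low. Of the Slc26a6 value 66.0% came from a 418-base transcript, and of the Slc26a3 value 83.6% from an 847-base transcript. The epithelial sodium channel subunits Scnn1a (2.22), Scnn1b (0.0229) and Scnn1g (0.0019 TPM) were low as well. Cftr, Scnn1a and Scnn1b were counted in each library, while Scnn1g had a count in A217 only.

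Carbonic anhydrases, which make bicarbonate from carbon dioxide, were led by the cytosolic Car2 at 440, 374, 422, 353 and 339 TPM. Car9, a membrane form raised by low oxygen in many cells, stood at 117, 143, 159, 90.8 and 143 TPM, and Car13 at 27.5 TPM. Car12 (3.71 TPM) and Car4 (0.0200 TPM) were low. The water channels Aqp5 and Aqp1 varied between lines in different ways: Aqp5 stood at 273, 423, 393, 244 and 233 TPM and Aqp1 at 186, 154, 102, 99.6 and 117 TPM. Aqp5 was highest in A218 and A220, and Aqp1 in A217 and A218, with Aqp5 above Aqp1 in every line.

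Potassium channels, which keep the membrane potential that drives anion exit, had 8 of 92 genes detected, against 51.0% of all protein-coding genes. Kcne3, an accessory subunit, stood at 235 ± 26.2 TPM, the leak channel Kcnk1 at 109 ± 4.85, the calcium-activated Kcnn4 at 69.5 ± 7.66, Kcnq1, the partner of Kcne3, at 59.1 ± 8.24, and Kcnk5 at 37.6 ± 3.50 TPM. Of 371 solute carrier genes 190 were detected, a share near that 51.0%, and the class held 0.802% of TPM. The mitochondrial ADP/ATP carriers Slc25a5 (1174 ± 30.9 TPM) and Slc25a4 (335 ± 19.0) and the phosphate carrier Slc25a3 (594 ± 22.6) led. The scaffold Slc9a3r1 (226 ± 6.04 TPM), which carries the family name but tethers apical transporters, came next, then the taurine transporter Slc6a6 (194 ± 5.37). Slc39a4 (141 ± 7.88) and Slc39a7 (123 ± 2.80) move zinc, and Slc7a11 (51.9 ± 4.00 TPM) imports cystine. Of the 31-base words of the most abundant Slc39a7 transcript, 83.3% occur in GENCODE transcripts that are not used here, Gm20427 first. Among ABC genes Abcc5 (205 ± 20.5), Abce1 (183 ± 11.2), a ribosome recycling factor, and the organic anion exporter Abcc3 (127 ± 9.03 TPM) led.

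Differences between lines were small for most genes and large for a few. In the 8375 genes that averaged 10 TPM or more, the SD of log2(TPM + 1) over the 5 lines had a median of 0.09, and 92.5% of these genes had an SD under 0.2. An SD of at least 1 was reached by 22 genes, of which 9 were named protein-coding genes and 13 pseudogenes or predicted genes. The labels used here name no sex. The Y-linked genes Eif2s3y, Ddx3y, Uty and Kdm5d were at 18.5 TPM or more in A217, A218 and A220 and at 0.634 TPM or less in A223 and A225. Each genotype label had lines of both kinds.

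Eno1b, a near-copy of the glycolytic enzyme gene Eno1, had the largest SD. It stood at 1.08, 332, 369, 370 and 0.36 TPM in A217, A218, A220, A223 and A225, so it was near 0 in 2 lines and above 300 TPM in 3. It shares 88.2% of its 31-base words with listed transcripts, chiefly of Eno1, which stood at 881 to 1115 TPM. Summed, Eno1 and Eno1b gave 1021, 1213, 1329, 1373 and 1115 TPM, so the sum was also lower in A217 and A225.

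Wdr72, Lars2 and Ugt1a6b were set apart by 1 or 2 lines. The WD-repeat gene Wdr72 stood at 1.43 TPM in A217 and at 19.9, 22.0, 21.5 and 18.7 TPM in the others. Lars2, the mitochondrial leucyl-tRNA synthetase, stood at 140 TPM in A220 and between 6.93 and 16.9 TPM elsewhere. Ugt1a6b, a glucuronosyltransferase, was at 3.63 and 3.58 TPM in A220 and A223 and at 27.9, 25.3 and 26.9 TPM in A217, A218 and A225, and it shares 85.1% of its words with other listed transcripts of its gene cluster. Summed with Ugt1a6a, it gave 111, 92.5, 71.1, 69.2 and 98.7 TPM in A217, A218, A220, A223 and A225, a narrower spread that was again lowest in A220 and A223.

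The remaining genes with the widest spread included secreted and defence proteins. Besides Tff1, Dmbt1, a mucosal scavenger protein, ranged from 5.53 TPM in A225 to 28.6 TPM in A218, and the chemokine Ccl2 from 6.33 TPM in A225 to 26.7 TPM in A218. Adgrg7, an adhesion receptor, ranged from 10.1 TPM in A218 to 46.0 TPM in A223, Afap1l1 from 5.09 to 22.7 TPM, Plac9b from 5.46 to 27.6 TPM, and Xlr3b, of an X-linked family of near-copies, from 2.23 to 30.4 TPM. Sprr2a2, a cornified envelope protein gene of high level, also differed between lines, at 4413, 2117, 4659, 2582 and 1632 TPM. Its words are all shared with Sprr2a1, and the sum of Sprr2a1, Sprr2a2 and Sprr2a3 kept the same order of lines, from 1766 TPM in A225 to 4947 TPM in A220.

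**Figure D5:**
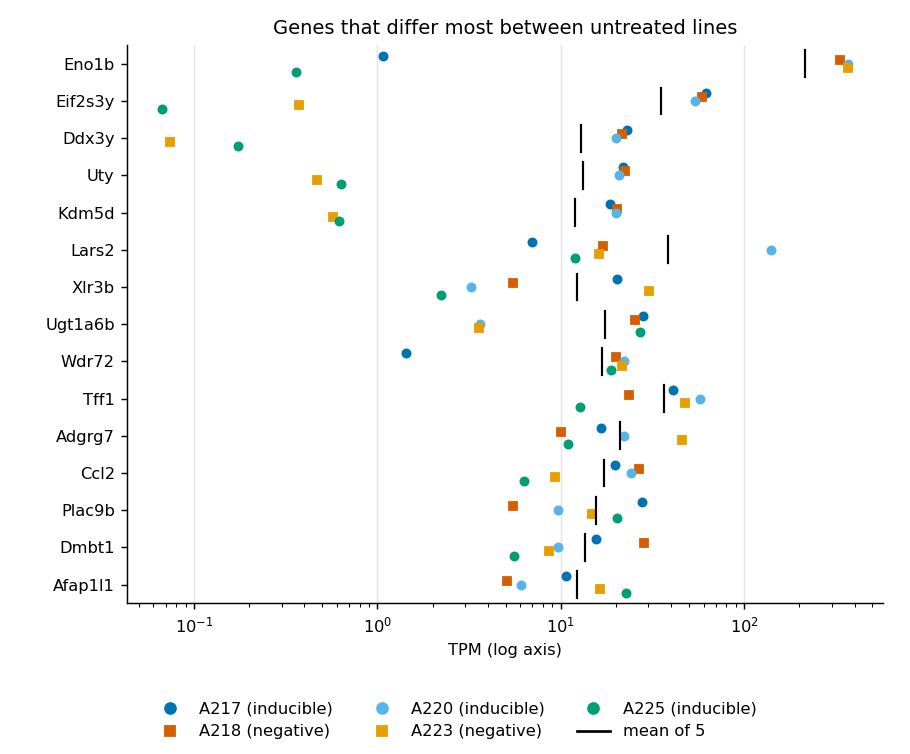
TPM on a log axis of the 15 named protein-coding genes with the largest SD of log2(TPM + 1) among genes averaging at least 10 TPM, with a point for each untreated line and a bar at the mean of 5. Eno1b and the 4 Y-linked genes fall into lines near 0 and lines well above 10 TPM, Wdr72 is low in A217, and Lars2 is high in A220.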

How the data were processed

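Total RNA of mouse pancreatic duct organoids was depleted of ribosomal RNA and sequenced in pairs, per the labels' protocols. The submitters' processing notes name kallisto 0.43.1, DESeq2 1.18.1 and the build GRCm38. Per the file headers, the deposited estimated counts per transcript are not normalised, and the deposited TPM values of a library sum to 1000000. Use of strand and the annotation release are not given in the sources used here. Overlapping antisense genes therefore cannot be told apart.

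The TPM of 109304 transcripts was summed per gene with GENCODE M21. The 1295 identifiers without a match held 0.611 to 0.688% of TPM and 22 added sequences were kept apart. Library depth was 50323885 to 59411540 estimated counts, and a count of 0 allows 3 counts, for counting error only. Values are means and SDs over the 5 untreated lines, and no groups were compared or tested. Libraries set apart from the other 4 were found with Dixon's criterion (0.71 of the range). A gene was called detected at 1 TPM or more in all 5 libraries. Shared sequence is the share of the 31-base words, on either strand, of a gene's most abundant transcript that occur in transcripts of other genes in GENCODE M21. No pair of libraries agreed within sampling noise, the lowest chi-square per degree of freedom being 15.9. The calculations, in Python 3.11.15 with pandas 2.3.3, were tested on simulated data.

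Members and lists were chosen with earlier results of these data known. Genes were named by mean TPM, leaving out predicted genes and pseudogenes. Named were the 20 most abundant, the duct markers, and the 15 most abundant transcription factors, receptors and secreted proteins with the leaders of each subgroup. Also named were every member listed for the receptor families of medium factors and the leading transporters. The top 3 of each class and cell type and the 15 with the largest SD between lines were added. Other genes, among them Eno1, Sprr2a2, Pdx1, Onecut1, Foxj1, Cdx2, Areg, P2ry2, Mmp7, the predicted genes and nuclear copies, the cycle genes and the genes at 0 counts, were named after their values were seen. Some genes that these rules name are not reported here. The alternatives were leaving out each library, medians, equal weight of genotypes, rescaling to nuclear protein-coding genes, shares of counts, other detection levels, pseudocounts and filters.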

Additional observations from a re-analysis of the deposited data

Results flagged for a closer look

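Of 284 values checked over the 5 lines, 20 had a library set apart from the other 4, by a gap of more than 0.71 of the whole range, where chance gives about 5% for values not chosen by their spread. That rate does not apply to all 284, which include 15 genes named for their SD between lines, Lars2 and Wdr72 among them, and genes named after their values were seen. Most often this was A225 (7 values), which was highest for Id2 (895 TPM against 708 to 762), Cd81 (572 against 531 to 540), Cdh17 (268 against 158 to 182) and Krt20 (40.7 against 11.4 to 17.3). A225 was lowest for Muc1 (99.3 TPM against 118 to 123), Pdx1 (15.8 against 19.7 to 20.8) and the share of TPM in mucins (0.00997% against 0.0119 to 0.0123%), which is nearly all Muc1. A217 was lowest for Ftl1 (5135 TPM against 5482 to 5571), Epha2 (158 against 181 to 188), Car12 (2.19 against 3.96 to 4.47) and Wdr72 (1.43 against 18.7 to 22.0), and highest for the share of TPM in glutathione S-transferases (0.839% against 0.757 to 0.779%). A223 was highest for Chd9 (4463 TPM against 2848 to 3221) and lowest for Clu (2187 against 2495 to 2562) and Ano9, of the anoctamin family (14.7 against 18.5 to 19.9). A218 was highest for Ctrc (12.5 TPM against 6.77 to 8.20), with the limit given above. It was also highest for the summed acinar markers (17.7 against 11.5 to 13.2), of which Ctrc is the largest part, and lowest for Krt23 (45.5 against 57.9 to 59.9). A220 was highest for Lars2 (140 TPM against 6.93 to 16.9) and Slc25a39, a mitochondrial carrier (220 against 176 to 186). The causes were not tested.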

How the results depend on the processing

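No paired analysis was possible because the 5 libraries form 1 group and no groups were compared. Leaving out each library in turn gave 9680 to 10231 TPM for the summed duct markers, 11705 to 11751 detected genes, 307 to 310 transcription factors, 161 to 164 receptors, 164 to 167 secreted proteins, 190 to 191 solute carriers, 27 markers of other cell types, 21 to 25 genes with an SD of at least 1 and a lowest correlation of 0.985. The shares of TPM ranged from 16.1 to 16.3% for ribosomal proteins, 4.62 to 4.78% for histones, 1.46 to 1.52% for the mitochondrial genome, 1.04 to 1.097% for keratins and 10.1 to 10.2% for the 20 most abundant genes. As shares of estimated counts, which favour long transcripts, ribosomal proteins held 6.17%, histones 1.53%, the mitochondrial genome 0.824% and the 20 most abundant genes 5.82%. Rescaled to nuclear protein-coding genes, ribosomal proteins held 17.4%, histones 5.03% and the 20 most abundant genes 10.95%. At 5 TPM in all libraries 14 markers of other cell types were detected. With a minimum mean of 1 TPM 88 genes had an SD of at least 1, and with no minimum 92. With a pseudocount of 0.1 the lowest correlation was 0.973. Of 303 single gene levels, 109 moved by more than the SD between lines under the rescaling, and none with a median, equal genotype weights or a library left out. TPM shares depend on the transcripts quantified, and levels under 1 TPM rest on few counts.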
